A study of Mus musculus with 16 samples.

Results

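Mouse brown adipose tissue after 7 days in the cold was compared with the same tissue after 2 days in the cold, to see what differs between an early and a later stage of cold exposure. The cells are those of the stromal vascular fraction, the cells that remain when digested fat tissue is freed of its floating layer. All libraries of this comparison came from C57BL6J mice housed at 5 °C, 4 libraries after 7 days and 4 after 2 days, taken by their library label from the 16 libraries of the series. The other 8 libraries, from mice at 30 °C (thermoneutral) or 22 °C (room temperature), entered the fits through the shared estimate of spread and are shown for reference. The 8 cold libraries hold 20882 cells at 7 days and 38906 at 2 days, of 109723 annotated cells in all. A smaller table, which alone gives cluster names, holds 2933 cells from 4 libraries at 7 days and 6179 from 3 libraries at 2 days, of 24352 in all, because replicate 1 of 2-day cold has no named cell. The labels do not say whether the libraries of a group came from separate animals, so p-values measure the spread between these libraries only.

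Brown fat makes heat when the sympathetic nerves that reach it are active, and in the cold it is remodelled over days: its vessels grow, its precursor cells divide and new fat cells form. The S score and the G2M score sum up, for each cell, the genes used to copy DNA and the genes used to enter and pass mitosis. Such scores are usually set against other genes of similar expression, but how these were made is not given in the sources used here. On that reading, a dividing cell scores well above 0 on the S score, the G2M score or both. A mean near or below 0 describes a population that is mostly not dividing. The authors' cluster names begin with VSM (vascular smooth muscle, which contracts to narrow a vessel), EC (read here as endothelial cells, the lining of vessels), Lymph_EC (their lymphatic kin), Pericyte (the cells wrapped around capillaries), Schwann (the glia of peripheral nerves), AP (read as adipocyte progenitors) and Adipo (read as fat cells). VSM-AP and ECAP are kept as labels. Since gene values were not analysed here, names were not checked against marker genes, and doublets were not called.

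Depth differed among the cold libraries. The median UMI count per cell, the number of distinct RNA molecules read, was 2491.5 to 4936.5 at 7 days and 2486 to 9819 at 2 days, higher in replicates 1 and 2 than in replicates 3 and 4 in both groups. A single library was unlike the rest: in replicate 1 of 2-day cold the median mitochondrial share of UMIs was 29.1%, and 54.2% of cells were at 20% or more. The other cold libraries had medians of 2.47% to 4.56%. Clusters 11 and 20 of all cells, which are mostly Adipo cells in the libraries with names, held 25.6% and 13.7% of the cells of replicate 1 of 2-day cold. They held 47.2% and 25.4% of its cells at 20% or more. Results over all cells are therefore also given without this library where it matters, and results over named cells never include it. At most 34 cell barcodes were shared by any pair of cold libraries. The scores of the named table and of the table of all cells differ for the same cells, with equal phase calls in 66.9% of the 6179 named 2-day cells and 62.0% of the 2933 named 7-day cells, so each table was compared within itself.

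The clearest change within a named cell population was in EC_10, an endothelial cluster. Its mean S and G2M scores, which read the genes of DNA synthesis and of mitosis, both fell between 2 and 7 days of cold. The mean S score of EC_10 cells was 0.0396, 0.0911 and 0.154 in replicates 2, 3 and 4 of 2-day cold. At 7 days it was 0.00052, 0.00193, -0.00371 and 0.0246 in replicates 1 to 4. Every 7-day library lay below every 2-day library. The difference was -0.0890 ± 0.0222 (SE, 4 against 3 libraries, limma adjusted p = 0.0182).

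EC_10 was the only one of the 14 named clusters tested to pass for the S score, which is 7.14% of them, and 3 had an unadjusted p below 0.05. The call depended on single libraries: without replicate 3 or 4 of 2-day cold, or replicate 1 or 3 of 7-day cold, the limma adjusted p was 0.0576, 0.0668, 0.0558 and 0.0604. The difference without each of these libraries was -0.0909, -0.0595, -0.0873 and -0.0859. With the median score of a library's cells in place of the mean it was -0.0317 (limma adjusted p = 0.264), and without the cells scoring above 0.25 it was -0.0274 (limma adjusted p = 0.180). With cold libraries only the limma adjusted p was 0.0700. Among replicates 1 and 2, with 1 library at 2 days, it was -0.0383, and among replicates 3 and 4 it was -0.112.

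The G2M score of EC_10 gave the firmer result. Its mean was 0.00973, 0.0531 and 0.0527 in replicates 2, 3 and 4 of 2-day cold, and -0.0170, -0.0241, -0.00743 and -0.0285 in replicates 1 to 4 of 7-day cold. Again the groups did not overlap. The difference was -0.0578 ± 0.00927 (limma adjusted p = 0.000496), with -0.0303 within replicates 1 and 2 and -0.0709 within replicates 3 and 4. This call held in all 23 other settings in which EC_10 could be tested, with differences from -0.0722 to -0.0182, the smallest with the high-scoring cells left out. These do not include the window of 2000 to 5000 UMIs, where replicate 4 of 7-day cold had only 2 EC_10 cells. The plot of EC_10 cells by library sets these values beside the libraries from warmer housing, in which the mean S score ran from -0.0108 to 0.0678 and the mean G2M score from -0.0103 to 0.0182. The mean S scores at 7 days lay inside that range, and 3 of the 4 mean G2M scores lay below it. At 2 days, replicate 2 lay inside the warmer range for both scores, and replicates 3 and 4 lay above it for both.

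**Figure D1:**
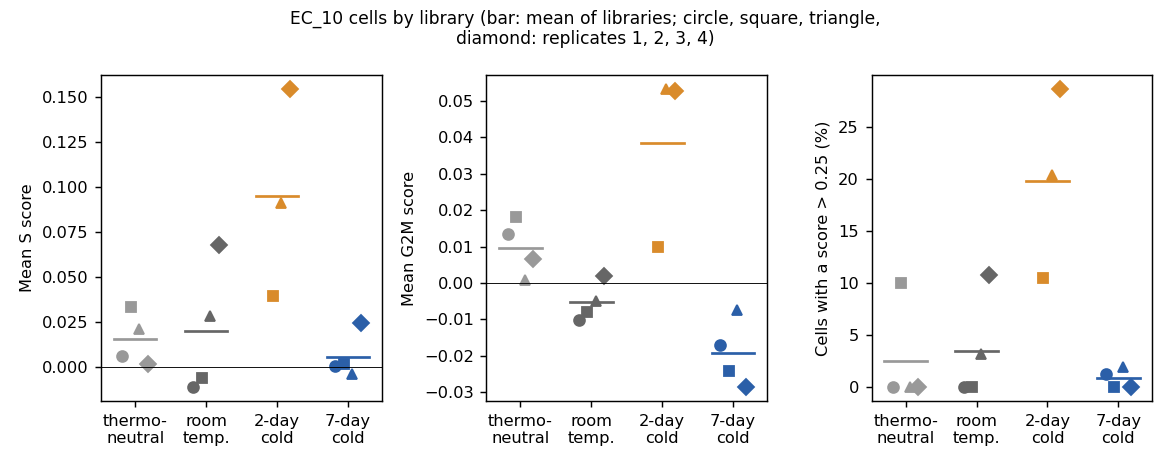
EC_10 cells in each of 15 libraries, by housing group: mean S score, mean G2M score and the percent of cells with either score above 0.25 (points: libraries, bars: mean of the group). The 3 libraries of 2-day cold stand above the 4 of 7-day cold in all 3 panels, with 10.4% to 28.6% of cells above 0.25 against 0% to 1.92%.

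Cells with an S or G2M score above 0.25, a threshold chosen after the values were seen, showed how many EC_10 cells lay behind these means. At 2 days they were 8 of 77 cells in replicate 2 (10.4%, 95% Wilson interval 5.36 to 19.2), 24 of 118 in replicate 3 (20.3%, 14.1 to 28.5) and 24 of 84 in replicate 4 (28.6%, 20.0 to 39.0). At 7 days they were 1 of 83, 0 of 47, 1 of 52 and 0 of 25 in replicates 1 to 4. The counts of 0 allow shares of up to 6.38% and 12% where the limit is set at 3 cells, or 7.56% and 13.3% as the upper Wilson bound, for counting error alone. Every 2-day library was thus above every 7-day library, where the highest share was 1.92%. The size of the difference depended on the threshold: the mean share at 7 days minus that at 2 days was -25.7 percentage points at 0.15, -19.0 at 0.25 and -10.6 at 0.35. At 0.35, replicate 2 of 2-day cold had 2 of 77 such cells (2.60%), close to the 7-day maximum of 1.92%. In the libraries from warmer housing the share ran from 0% to 10.7%, so replicate 2 of 2-day cold lay within that range and replicates 3 and 4 above it.

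EC_10 held most of the high-scoring named cells of the early stage. Of 111 such cells at 2 days, 56 were in EC_10 (50.5%) and 23 in EC_28, another endothelial cluster. Of 42 at 7 days, 2 were in EC_10 and 2 in EC_28, while ECAP_4 held 12 and VSM_21 held 7. EC_28 had 9 of 30, 5 of 18 and 9 of 28 high-scoring cells in the 2-day libraries and 0 of 4, 2 of 11, 0 of 3 and 0 of 3 in the 7-day libraries, too few at 7 days to be tested. Without EC_10, the share of high-scoring named cells was 0.636% to 1.13% in the 2-day libraries and 0.979% to 2.28% in the 7-day libraries.

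Depth differed in the same direction. The median UMI count of EC_10 cells was 5762, 6711 and 5345.5 at 2 days and 3096, 2957, 4168 and 5660 at 7 days, a difference that did not pass (log2 difference -0.63 ± 0.38, limma adjusted p = 0.343). The 56 high-scoring cells of 2-day cold had a median of 8117.5 UMIs and the other 223 a median of 5360. Among EC_10 cells of 2000 to 5000 UMIs, a window set the same for both groups, 12 of 74 were high-scoring at 2 days and 1 of 65 at 7 days. By library, that was 26.7%, 13.8% and 13.3% against 0%, 0%, 5.56% and 0%, the last over 2 cells. The mean share at 7 days minus that at 2 days was -16.5 percentage points in this window. The median mitochondrial share of EC_10 cells was 2.19%, 3.33% and 3.4% at 2 days and 3.85%, 4.00%, 4.04% and 4.28% at 7 days, without overlap (limma adjusted p = 0.204), and its part in the result was not tested. Cells could not be thinned to a fixed number of UMIs, because their gene counts were not analysed here.

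In the table of all cells, which includes replicate 1 of 2-day cold, 91.6% of the 486 cold EC_10 cells lay in cluster 18. They are 37.0% of the 1204 cold cells of that cluster, so its values are mostly those of other cells. Its mean G2M score was -0.0458, -0.0154, 0.0296 and 0.0476 in replicates 1 to 4 of 2-day cold and -0.0827, -0.0754, -0.0688 and -0.0761 at 7 days, with no overlap. The difference was -0.0797 ± 0.0138 for the G2M score (limma adjusted p = 9.16e-05) and -0.0739 ± 0.0174 for the S score (limma adjusted p = 0.00306). High-scoring cells were 5 of 285, 13 of 216, 29 of 161 and 33 of 150 at 2 days, and 1 of 151, 1 of 109, 1 of 95 and 0 of 37 at 7 days. Replicate 1, the library that stood apart, had the lowest share at 2 days, 1.75%, above the 7-day libraries but within the range of the warmer libraries, 0% to 4.76%. The median UMI count of the cluster was also higher in each 2-day library, at 4162 to 5141 against 2422 to 3665 (limma adjusted p = 0.141), and this difference passed once a covariate separated replicates 1 and 2 from 3 and 4.

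Other named clusters had a lower G2M score at 7 days as well, by smaller amounts. Of the 14 tested, 6 passed as lower and 0 as higher (42.9% called), and 4 of those 6 had groups that did not overlap. Estimates were below 0 in 10 and above 0 in 4. They were both endothelial clusters tested (EC_10 and EC_15), 3 of the 5 smooth muscle clusters (VSM_0, VSM_2 and VSM_3) and 1 of 2 Schwann clusters (Schwann_18). The median difference over the 14 was -0.00313.

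In the smooth muscle cluster VSM_0 the mean G2M score was -0.0214, -0.0219 and -0.0154 at 2 days and -0.0477, -0.0412, -0.0412 and -0.0328 at 7 days. The difference was -0.0212 ± 0.00375 (limma adjusted p = 0.000626). VSM_3 had -0.0200, -0.0279 and -0.0222 at 2 days and -0.0440, -0.0534, -0.0412 and -0.0402 at 7 days, a difference of -0.0213 ± 0.00402 (limma adjusted p = 0.000741). Neither cluster overlapped between groups, and both had means below 0 in every cold library, so the fall was between low values. Over all VSM cells, high-scoring cells were at most 0.274% of a 2-day library and 0.338% to 3% of a 7-day library.

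Schwann_18 went from 0.0167, 0.0201 and 0.00682 at 2 days to -0.00463, -0.000373, -0.00345 and -0.00386 at 7 days, again without overlap (-0.0176 ± 0.00388, limma adjusted p = 0.00559). The 4 libraries of warmer housing with fewer than 10 Schwann_18 cells were set missing in this fit, and the call was lost with a minimum of 5 cells (adjusted p = 0.0944) or with medians (0.0726). VSM_2 and EC_15 overlapped between the groups, in each through replicate 4 of 7-day cold. Their differences were -0.0200 ± 0.00605 for VSM_2 (limma adjusted p = 0.0186) and -0.0255 ± 0.00883 for EC_15 (limma adjusted p = 0.0301). The EC_15 call was lost with the replicate number as a block (0.0793), with cold libraries only (0.0926) and without any 1 of 5 cold libraries (replicates 2 and 4 of 2-day cold and replicates 1, 2 and 3 of 7-day cold; limma adjusted p = 0.0575 to 0.128). The VSM_2 call was lost with cold libraries only (0.0926) and without replicate 4 of 2-day cold or replicate 3 of 7-day cold (0.0801 and 0.0545).

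**Figure D2:**
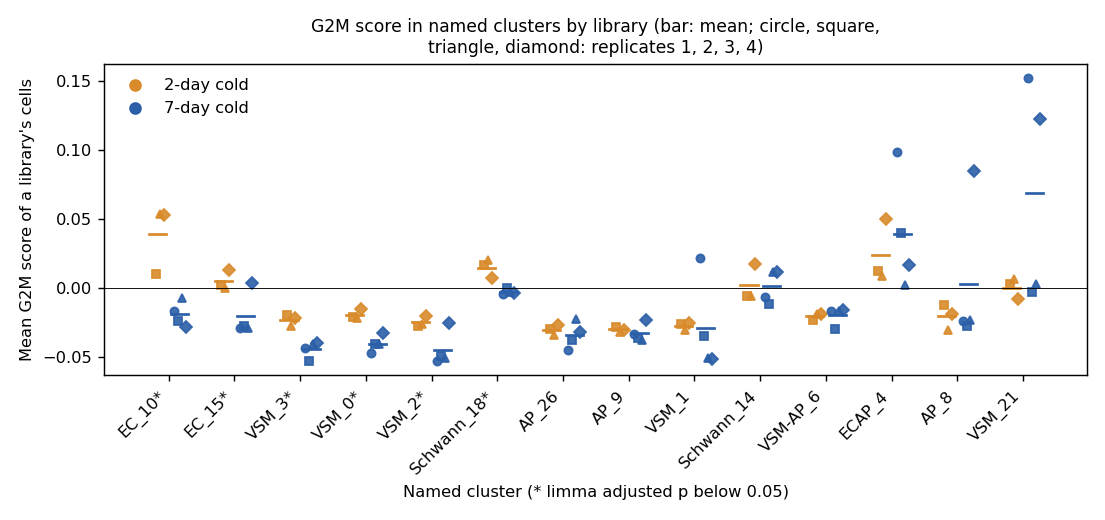
Mean G2M score of the cells of each library (points) in 14 named clusters, with the mean of the 2-day (orange) and 7-day (blue) cold libraries as bars. Clusters with an asterisk passed the test. EC_10 has the largest fall, and VSM_21, ECAP_4 and AP_8 have 7-day libraries far above the rest.

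None of the 3 named progenitor clusters tested passed for the G2M score. AP_8, AP_9 and AP_26 had differences of 0.0230 ± 0.0220, -0.00258 ± 0.00495 and -0.00368 ± 0.00602 in G2M score (limma adjusted p = 0.552, 0.779 and 0.778). In the table of all cells, however, cluster 48 fell in both scores, with a G2M difference of -0.0223 ± 0.00644 and an S difference of -0.0233 ± 0.00553 (limma adjusted p = 0.00757 and 0.00409). It holds 159 of the 160 cold AP_26 cells, which are 90.9% of its 175 cold cells. Nearly the same progenitor cells thus passed with the scores of one table and not with those of the other. The AP_8 value rested on replicate 4 of 7-day cold, at 0.0848 over 23 cells, against -0.0279 to -0.0231 in the other 7-day libraries. VSM_21, a smooth muscle cluster, pointed the other way from VSM_0, VSM_2 and VSM_3. It had 0.152 and 0.122 in replicates 1 and 4 of 7-day cold, and -0.00340 and 0.00275 in replicates 2 and 3. At 2 days it ran from -0.00821 to 0.006, so the 7-day libraries were split (difference 0.0683 ± 0.0347, limma adjusted p = 0.157). In replicates 1 and 4, 4 of 28 and 1 of 10 VSM_21 cells were high-scoring, so these means rest on few cells.

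Among all cells the fall in G2M score was broad. Of 61 clusters, 27 had at least 10 cells in every cold library and were tested. Of these, 22 passed as lower (81.5% called) and 0 as higher, with estimates below 0 in 25 and above 0 in 2. In 17 the groups did not overlap. The 22 differences lay between -0.0797 and -0.0159, the median over all 27 clusters was -0.0258, and in each of the 22 the sign was the same within replicates 1 and 2 and within replicates 3 and 4. The largest falls were in cluster 18, described above, and in clusters 1, 6, 2 and 0, which hold no named cells. Only 7 of the 22 are mostly cells of a named class: 3 VSM clusters and 1 cluster each of EC, AP, Schwann and Pericyte.

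Cluster 1 had mean G2M scores of 0.0126, 0.0407, 0.00885 and 0.00483 at 2 days and -0.0277, -0.0384, -0.0306 and -0.0433 at 7 days (-0.0518 ± 0.00851, limma adjusted p = 7.67e-05). In cluster 6 they were 0.00433, 0.0282, 0.0170 and 0.00529 at 2 days and -0.0285, -0.0412, -0.0235 and -0.0247 at 7 days (-0.0432 ± 0.00594, limma adjusted p = 2.95e-05). In both clusters every 2-day library was above 0 and every 7-day library below 0. In clusters 2 and 0 the differences were -0.0341 ± 0.00498 and -0.0334 ± 0.00525 (limma adjusted p = 2.95e-05 and 3.92e-05). High-scoring cells did not make up these falls: clusters 1 and 6 held 1 and 0 such cells at 2 days, among 2156 and 1410 cells. With such cells left out of every cluster, an alternative added after seeing the data, all 22 clusters kept their call and 25 passed.

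**Figure D3:**
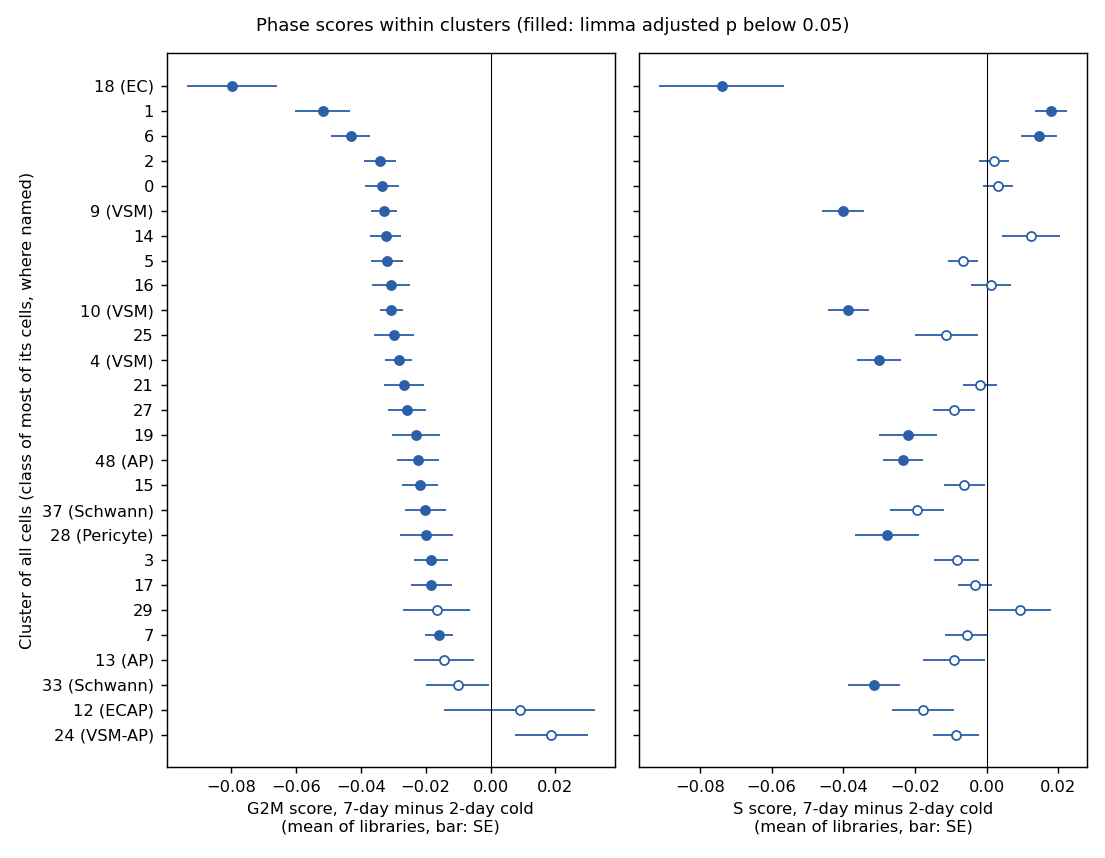
Difference between 7-day and 2-day cold in mean G2M score (left) and mean S score (right) for the 27 tested clusters of all cells, with standard errors. Filled points passed the test. The G2M differences lie below 0 in 25 of 27 clusters, while the S differences lie on both sides.

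The S score did not move as one. It passed as lower in 8 of the 27 clusters and as higher in 2 (37% called). Estimates were below 0 in 20 and above 0 in 7, and the median difference was -0.00846. The 8 that passed as lower were the EC cluster 18, the 3 VSM clusters 9, 10 and 4, the AP cluster 48, the Schwann cluster 33, the Pericyte cluster 28 and the unnamed cluster 19. The 3 smooth muscle clusters changed by -0.04 ± 0.00586 (cluster 9), -0.0386 ± 0.00574 (cluster 10) and -0.0301 ± 0.00604 (cluster 4), with limma adjusted p = 5.28e-05, 5.28e-05 and 0.00109. None of the 3 overlapped between groups, and all their library means were below -0.04 at both times. The other 4 beside cluster 18 changed by -0.0233 ± 0.00553 (cluster 48), -0.0315 ± 0.00720 (cluster 33), -0.0279 ± 0.00898 (cluster 28) and -0.0220 ± 0.00815 (cluster 19), of which clusters 28 and 19 overlapped between groups. The call of cluster 28 was lost without replicate 1 or 4 of 2-day cold or replicate 1 or 2 of 7-day cold (limma adjusted p = 0.0527 to 0.0933). That of cluster 19 was lost without replicate 2, 3 or 4 of 2-day cold, replicate 2 or 4 of 7-day cold, or thermoneutral replicate 2 or 3 (limma adjusted p = 0.0521 to 0.128), with the replicate number as a block (0.0543) and with a minimum of 5 cells (0.0533).

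Clusters 1 and 6, whose G2M score fell most among the unnamed clusters, were the ones whose S score passed as higher. Cluster 1 went from a range of -0.0154 to 0.00220 at 2 days to 0.00951 to 0.0172 at 7 days (0.0179 ± 0.00448, limma adjusted p = 0.00409). Cluster 6 went from 0.00422 to 0.0169 at 2 days to 0.0192 to 0.0303 at 7 days (0.0145 ± 0.00500, limma adjusted p = 0.0337), without overlap in either. The cluster 6 call was lost without replicate 1 or 4 of 2-day cold or replicate 2 or 4 of 7-day cold (limma adjusted p = 0.0859 to 0.107), with cold libraries only (0.0546) and with medians (0.0115, adjusted p = 0.129). In the UMI window its difference was 0.00736 (limma adjusted p = 0.380). The cells of cluster 1 called S were 32.1% of 2156 at 2 days and 49.2% of 2049 at 7 days, and those called G2M 43.4% and 16.8%. Such calls are usually made from the sign and order of the 2 scores, which are low here, and no cycling is read from them.

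The smooth muscle cells show how far the scores depend on the table they come from. In the table of all cells both scores fell in the 3 VSM clusters tested. In the named table the G2M score passed as lower in 3 of 5 VSM clusters and the S score in 0 of 5. The S differences of these 5 ran from -0.00926 to 0.00767. Over the same named cells of all classes, the mean S score of the 6179 2-day cells was -0.0435 in the first table and -0.00155 in the second. For the 2933 7-day cells it was -0.0709 and -0.00460.

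Across libraries, the G2M score of the typical cluster set the 7-day libraries apart from all others. The median over the tested clusters was -0.0285, -0.0393, -0.0324 and -0.0364 in replicates 1 to 4 of 7-day cold, and -0.0160, -0.00267, -0.00335 and -0.00258 at 2 days. Thermoneutral libraries had -0.0185 to -0.0135 and room-temperature libraries -0.0167 to -0.00328, over the 20 to 27 of these clusters in which they had at least 10 cells. All 4 libraries of 7-day cold thus lay below the 12 others. Set against the mean of the warmer libraries in the same cluster, the median was -0.0252 to -0.0184 at 7 days and -0.00185 to 0.0125 at 2 days.

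**Figure D4:**
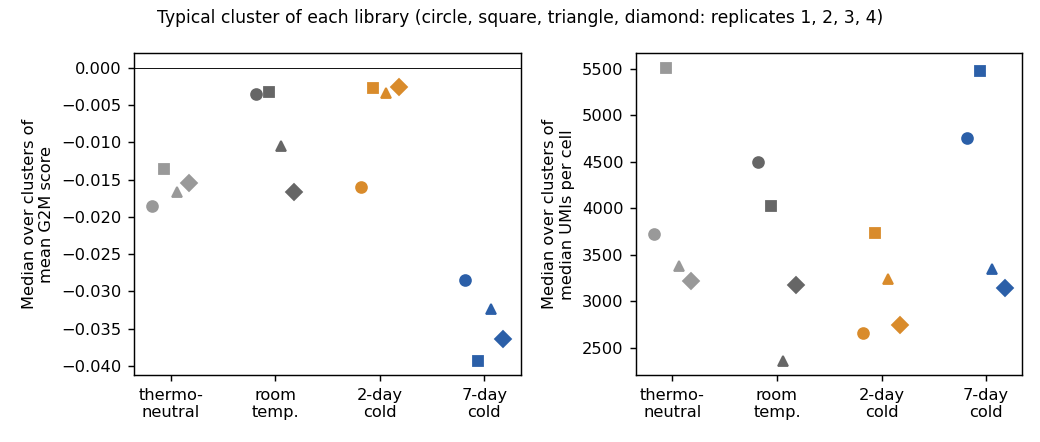
Median over the tested clusters of the mean G2M score (left) and of the median UMI count (right), for each of 16 libraries by housing group. The 4 libraries of 7-day cold are the lowest in G2M score, and replicates 1 and 2 of 7-day cold are among the deepest.

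Depth and mitochondrial share also differed between the groups, in most of the clusters tested. Of the 22 clusters whose G2M score passed as lower, 21 had a higher median UMI count at 7 days and 22 a higher median mitochondrial percent. The medians of these differences were 0.52 and 0.19 on the log2 scale. Of the 5 clusters that did not pass, 2 had a higher UMI count and 4 a higher mitochondrial percent, with medians of -0.17 and 0.40. The rise in depth thus lay mostly in the clusters whose G2M score passed as lower, while the rise in mitochondrial percent did not set them apart. In the fit without covariates none of these differences in depth or mitochondrial percent passed (0% of 27 called for each, with 8 and 4 at an unadjusted p below 0.05). Once a covariate separated replicates 1 and 2 from 3 and 4, however, 13 clusters passed for depth, 11 higher and 2 lower at 7 days, clusters 1, 6 and 18 among them. The part of depth in the G2M shift was not tested beyond a window of UMI counts. Among cells of 2000 to 5000 UMIs only, 10 of the 27 clusters had enough cells to be tested, and 8 passed, all lower at 7 days. These 8 were all among the 22, and no other of the 22 could be tested. Clusters 0, 1, 2 and 6 were among the 8. Without cells at 20% mitochondrial UMIs or more, all 22 fell. Without replicate 1 of 2-day cold all 22 fell too, and 23 clusters passed.

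The smallest p-values for depth among all clusters were in clusters 15, 12 and 29, with 7-day median UMIs 1.73, 0.596 and 0.600 times those at 2 days (limma adjusted p = 0.135 for each). For the mitochondrial percent they were in clusters 24, 18 and 9, at 1.61, 1.59 and 1.38 times (limma adjusted p = 0.200, 0.307 and 0.307). Cluster 24 is mostly VSM-AP cells, whose mitochondrial share was high at both times. It ran from 28.6% to 33.2% at 7 days and from 15% to 29.2% at 2 days.

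In the named clusters 0 of 14 passed for the median UMI count and 0 of 14 for the mitochondrial percent (0% called for each), with 2 and 4 at an unadjusted p below 0.05. VSM_21 had 3258, 6972 and 3155 UMIs at 2 days and 2429.5, 2201, 1561 and 2229.5 at 7 days, without overlap (log2 difference -1 ± 0.38, limma adjusted p = 0.103). ECAP_4 had a log2 difference of -0.94 ± 0.38 and VSM_3 one of 0.68 ± 0.38 (limma adjusted p = 0.103 and 0.343).

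The mitochondrial share of the smooth muscle clusters VSM_0 to VSM_3 was higher in every 7-day library than in every 2-day library, short of the threshold. In VSM_2 it was 6.13%, 9.54% and 8.55% at 2 days and 10.8%, 10.9%, 11.1% and 11.1% at 7 days (log2 difference 0.46 ± 0.18, limma adjusted p = 0.151). In VSM_0 it was 5.74%, 9.38% and 8.09% at 2 days and 9.99%, 11.6%, 9.90% and 11.1% at 7 days (0.48 ± 0.21, adjusted p = 0.151). The smooth muscle cluster VSM_21 went the other way, with overlap. It had 4.13%, 5.87% and 6.86% at 2 days and 4.35%, 1.78%, 1.86% and 3.72% at 7 days (-0.99 ± 0.44, limma adjusted p = 0.151). Schwann_14 had 1.87%, 3.32% and 2.27% against 3.69%, 3.64%, 3.37% and 3.33% (0.52 ± 0.23, adjusted p = 0.151). In 6 of the 14 clusters the groups did not overlap. With a covariate that separates replicates 1 and 2 from 3 and 4, VSM_0 and VSM_2 passed.

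The cell composition changed in 1 of the 55 clusters of all cells tested (1.82% called, 8 at an unadjusted p below 0.05). Cluster 23 fell almost to nothing. It made up 0.280%, 0.557%, 8.91% and 4.21% of the cells of replicates 1 to 4 of 2-day cold, 1368 cells in all, and 0.0272%, 0.0287%, 0.0117% and 0.0679% at 7 days, 5 cells in all. Every 2-day library was above every 7-day library, while 63.5% of the 2-day cells of the cluster came from replicate 3 alone. The log2 odds ratio was -5.34 ± 1.10 (limma adjusted p = 0.00932), with -3.39 within replicates 1 and 2 and -7.28 within replicates 3 and 4. The call was lost without replicate 4 of 2-day cold (-4.86, limma adjusted p = 0.0516) and on the arcsine scale (limma adjusted p = 0.0809), on which cluster 36 passed instead. edgeR also called 1 cluster.

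Cluster 23 carries no name, and 94.7% of its 2-day cells were called S. Few of them scored high, however: 4 of 1368 were above 0.25, with a mean S score of 0.0750 and a mean G2M score of -0.0473, at a median of 2091.5 UMIs. Cluster 36, named here after its values were seen, is also unnamed in the deposited tables. It was 93.2% called S at 2 days and made up 0.690%, 1.41%, 1.59% and 2.46% at 2 days and 0.258%, 0.144%, 0.175% and 0.475% at 7 days. These groups did not overlap either, but the test did not pass (-2.51 ± 0.73, limma adjusted p = 0.0953). Cluster 36 did pass on the arcsine scale, in edgeR with TMM scaling, without cells at 20% mitochondrial UMIs or more, in the UMI window, and without room-temperature replicate 4. The libraries from warmer housing held 0% to 0.0419% of cells in cluster 23 and 0.0167% to 0.336% in cluster 36. The authors formed the clusters on these same cells, and whether the genes of such scores shaped clusters 23 and 36 is not given in the sources used here. A change in a cell's expression and a change in cell number therefore cannot be told apart for these clusters.

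**Figure D5:**
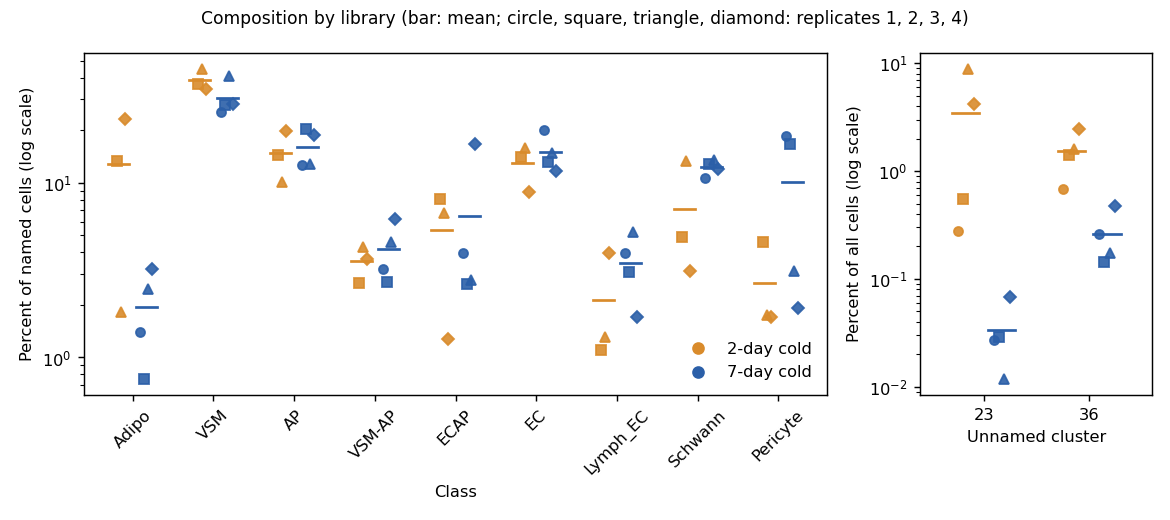
Percent of named cells in each of 9 classes (left) and percent of all cells in the unnamed clusters 23 and 36 (right), by library, on log scales. Points are libraries and bars are group means. Clusters 23 and 36 separate the groups without overlap, and no class does.

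No class of named cells passed (0 of 9, 0% called, 0 at an unadjusted p below 0.05, and 0 by edgeR), and no class separated the groups. The largest differences were in Adipo, Pericyte and Schwann cells, each at a limma adjusted p of 0.376. Adipo cells were 13.3%, 1.83% and 23.1% of named cells in replicates 2, 3 and 4 of 2-day cold, and 1.40%, 0.749%, 2.45% and 3.19% at 7 days (log2 odds ratio -2.41 ± 1.48). Replicate 3 of 2-day cold thus lay among the 7-day libraries. Replicate 1 of 2-day cold has no named cell and is not in this comparison. Among all cells, the clusters that are mostly Adipo cells held 40.0%, 3.45%, 0.267% and 4.78% of replicates 1 to 4 of 2-day cold. At 7 days they held 0.231% to 1.70% of a library, and this was not tested. Removal of floating adipocytes and of dead cells during preparation can affect these shares, and its part was not tested. The median mitochondrial share of Adipo cells was 17.9% to 59.2% over the libraries.

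Pericytes were 18.5%, 16.8%, 3.11% and 1.91% at 7 days and 4.56%, 1.76% and 1.70% at 2 days (1.59 ± 0.89). The high values were in replicates 1 and 2, and these alone gave a log2 odds ratio of 2.16, against 0.54 for replicates 3 and 4. Schwann cells were 10.7%, 12.8%, 13.6% and 11.9% at 7 days and 4.91%, 13.3% and 3.11% at 2 days (1.14 ± 0.68). They were even across the 7-day libraries and uneven at 2 days.

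VSM was the most common class at both times, 30.5% ± 6.92 (SD, n = 4) of named cells at 7 days and 38.8% ± 5.49 (n = 3) at 2 days (-0.54 ± 0.52, limma adjusted p = 0.561). With TMM scaling, edgeR called this class lower at 7 days (-0.99, adjusted p = 0.000915). AP cells were 16.1% ± 3.99 and 14.8% ± 4.91, and EC cells 14.9% ± 3.68 and 12.9% ± 3.59. ECAP cells were 6.49% ± 6.76 and 5.34% ± 3.59, VSM-AP cells 4.16% ± 1.55 and 3.54% ± 0.832, and Lymph_EC cells 3.50% ± 1.49 and 2.12% ± 1.59. The limma adjusted p of these classes was 0.405 to 0.810, and with TMM scaling in edgeR the estimates of AP, EC, ECAP, VSM-AP and Lymph_EC turned below 0. The order of the classes by mean share was VSM, AP, EC, Schwann and Pericyte at 7 days and VSM, AP, EC, Adipo and Schwann at 2 days, with neighbours after VSM closer than the larger of their SDs.

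Of the 27 named clusters tested, 0 passed (0% called), edgeR called 0 and 2 were below 0.05 before adjustment. In 3 of them the groups did not overlap. Schwann_14 was 9.18%, 10.1%, 11.5% and 5.53% of named cells at 7 days and 3.61%, 4.17% and 2.50% at 2 days, higher in each 7-day library (1.48 ± 0.49, limma adjusted p = 0.246). VSM_21 was 3.57%, 5.34%, 3.44% and 2.13% at 7 days and 1.39%, 2.15% and 1.56% at 2 days (1.08 ± 0.41, adjusted p = 0.266), with replicate 4 of 7-day cold just below the highest 2-day library. VSM_2 was 3.70%, 3.75%, 3.11% and 2.98% at 7 days and 6.02%, 8.60% and 5.75% at 2 days, lower in each 7-day library (-1.01 ± 0.57, adjusted p = 0.549). EC_28 also did not overlap, at 0.667% ± 0.25 and 1.23% ± 0.0807 (adjusted p = 0.549).

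The clusters of 1 class did not all point the same way. Of the 10 VSM clusters, 8 had estimates below 0 and 2 above, from -1.01 to 1.08. Both Adipo clusters had estimates below 0 and both Schwann clusters above 0, while the 4 AP clusters were split evenly and the 5 EC clusters tested had 2 above 0 and 3 below. EC_10 itself was 7.20% ± 2.86 of named cells at 7 days and 4.90% ± 2.46 at 2 days (0.62 ± 0.52, adjusted p = 0.647), so its scores fell while its share showed no passing change.

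At the level of whole libraries, 7 measures were compared with exact permutation tests over 70 assignments, where the smallest possible two-sided p is 0.0286. The number of cells was 7355, 3484, 8570 and 1473 at 7 days and 10001, 9156, 9747 and 10002 at 2 days, each 7-day library below each 2-day library (exact p = 0.0286, adjusted p = 0.200 over the 7). Without replicate 1 of 2-day cold the exact permutation p was 0.0857. The mean G2M score over all cells was -0.0299, -0.0474, -0.0286 and -0.0372 at 7 days and -0.0583, -0.0160, -0.00789 and -0.0165 at 2 days (exact p = 0.371). Replicate 1 of 2-day cold was the lowest of the 8. Without it the difference was -0.0223 with an unadjusted exact permutation p of 0.0286, the smallest possible over 35 assignments. In no setting tried was the adjusted exact permutation p of this measure below 0.200. Cells with an S or G2M call made up 55.1% ± 8.33 and 53.4% ± 19.6 of a library (exact permutation p = 0.886, n = 4 each).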

How the data were processed

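Single-cell RNA-seq was aligned and counted against mm10 with STAR and Cell Ranger 3.0.1, per the submitters' processing notes. The authors deposited per-cell tables that give UMI and gene counts, the mitochondrial fraction of UMIs, S and G2M scores, phase calls and cluster labels, per the file headers. How cells were filtered, integrated and scored is not given in the sources used here. Members, lists and the rule for naming clusters (those past the threshold, the 5 largest falls or rises where more than 10 passed, otherwise the 3 of smallest p) were chosen with earlier results of these data known.

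The library was the replicate. Shares were tested as log2 odds with 0.5 cells added, where a library held 10 or more cells of the cluster on average. Mean scores, log2 median UMIs and log2 median mitochondrial percent (plus 0.1) were tested in clusters with at least 10 cells in each cold library. A warmer library with fewer cells was set missing. All 4 groups entered 1 limma 3.58.1 fit (R 4.3.3) per family, without covariates, with Benjamini-Hochberg adjustment and a threshold of 0.05. edgeR 4.0.16, other scalings, filters, a UMI window and leaving out each library were alternatives. The code was tested on simulated data.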

Additional observations from a re-analysis of the deposited data

Results flagged for a closer look

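In 62 groups of 4 libraries, 7 held 1 library far from its 3 neighbours, where chance flags about 1 in 20 groups. Replicate 1 of 2-day cold gave 3 of the 7: a median of 9819 UMIs per cell against 2486 to 3189 in the others, a median mitochondrial percent of 29.1 against 2.47 to 3.70, and a mean G2M score of -0.0583 against -0.0165 to -0.00789. In replicate 3 of 7-day cold, VSM cells were 40.8% of named cells against 25.5% to 28.1%. In replicate 4 of 7-day cold, ECAP cells were 16.6% against 2.62% to 3.95%. The same library stood apart in mean G2M score in VSM_2, at -0.0255 against -0.0534 to -0.0497, and in EC_15, at 0.00360 against -0.0294 to -0.0276.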

How the results depend on the processing

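The fall in G2M score of clusters 0, 1, 2, 6 and 18 and of EC_10, VSM_0 and VSM_3 kept its direction and passed in each alternative in which it could be tested. Cluster 18 and EC_10 could not be tested in the UMI window, where replicate 4 of 7-day cold had 8 and 2 of their cells. Replicate numbers do not pair the libraries: same-number correlations of deviations were -0.170, 0.687, 0.244 and -0.206 for all cells. For named cells they were 0.333, -0.177 and -0.302 in replicates 2 to 4. Over all cells, the best-correlated 2-day library was replicate 2, 2, 4 and 1 for replicates 1 to 4 of 7-day cold. Over named cells it was replicate 2, 2, 4 and 3, so mostly within replicates 1 and 2 or within 3 and 4. With the number as a replicate block, 1 cluster of all cells, 0 named clusters and 0 classes passed for composition. Within all clusters 0, 0, 11 and 21 passed for UMIs, mitochondrial percent, S and G2M score, and within named clusters 2, 0, 3 and 5.

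For clusters of all cells, 3 passed for composition with TMM scaling, 2 without cells at 20% mitochondrial UMIs or more, 2 among cells of 2000 to 5000 UMIs, 0 at clustering resolution 0.8, and 0 (without replicate 4 of 2-day cold) to 4 (without replicate 3 of 2-day cold) on leaving out libraries. With the arcsine scale 1 named cluster passed, and with TMM scaling 1 class. AP turned to -0.0270 with centred log ratios, -0.58 with TMM, -0.0605 under 20% mitochondrial UMIs, -0.78 in the UMI window and -0.19 as a share of all cells, and ran from -0.12 to 0.45 on leaving out libraries. EC turned to -0.42 with TMM and -0.12 as a share of all cells (-0.0186 to 0.45). ECAP turned to -0.31 with TMM, -0.33 in the window and -0.13 as a share of all cells (-0.64 to 0.73). VSM-AP turned to -0.46 with TMM, -1.04 under 20% mitochondrial UMIs and -0.14 as a share of all cells (-0.0127 to 0.40), and Lymph_EC to -0.0347 with TMM.

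Within clusters of all cells, 13 passed for UMIs with replicates 1 and 2 set against 3 and 4, and 3 for mitochondrial percent on the percent scale (0 to 1 on leaving out libraries). In the UMI window 2 of 10 clusters tested passed for the S score and 8 of 10 for the G2M score. With at least 20 cells, 13 of 17 tested passed for the G2M score. Within named clusters, 1 passed for UMIs and 2 for mitochondrial percent with that covariate (0 to 1 for UMIs on leaving out libraries), and 1 for mitochondrial percent in the window and 1 on the percent scale. For the S score 3 passed with the covariate and 0 with cold libraries only, with medians, in the window or without high-scoring cells (0 to 2 on leaving out libraries). For the G2M score 3 passed with at least 20 cells and 0 in the window, where 1 cluster was tested (4 to 8 on leaving out libraries). The cause of these changes was not tested.

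Under 20% mitochondrial UMIs the library differences turned to 910.4 median UMIs, 0.511 in mitochondrial percent and -4.97 percentage points called S or G2M. On leaving out libraries they ran from -1550 to 894.5 median UMIs, -16.7 to 275.1 median genes, -8.17 to 0.722 in mitochondrial percent, -0.00770 to 0.00448 in mean S score and -7.86 to 6.74 percentage points. Cells per library, from 1473 to 10002, limit rare clusters, and 4 libraries against 3 or 4 limit every test.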

Other observations

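The unnamed cluster 46 held strongly scoring cells at both times. It had 56 cells in 2-day cold, of which 55 scored above 0.25, and 56 cells in 7-day cold, of which 47 did. Its mean G2M score was 0.594 at 2 days and 0.464 at 7 days, and its median UMI count 10567.5 and 11281.5. These values pool the cells of each group and were not tested.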
